A study of Homo sapiens with 12 samples.

Results

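The NFκB subunits, the atypical IκB protein BCL3 and the kinases that switch them on were followed in MDA-MB-231-ERβ cells, a line made from the triple-negative breast cancer line MDA-MB-231 in which doxycycline (dox) turns on an estrogen receptor beta (ERβ) transgene. Members were the rows of the gene count table that carry 1 of 10 symbols: RELA, RELB, REL, NFKB1, NFKB2, BCL3, CHUK, IKBKB, IKBKG and MAP3K14. All 10 were found among the 12451 gene entries used, and all 10 were among the 11303 genes tested. RNA-seq libraries were available for 4 groups of 3: cells kept for 5 days with vehicle, cells kept for 5 days with 1 nM estradiol (E2, the ERβ ligand), vehicle cells given 20 ng/ml tumor necrosis factor alpha (TNFα) for the last 3 h, and E2 cells given the same TNFα (E2+TNFα). Every group received dox, by the labels of the first 3 groups and by the study's methods for E2+TNFα, so the controls also carried induced ERβ and no group lacked it. The dishes were plated in triplicate from the same line, and p-values therefore measure the spread between these dishes.

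NFκB factors are dimers of Rel-homology proteins that wait in the cytoplasm bound to IκB inhibitors. In the canonical branch, TNF receptors activate the IκB kinase complex (the catalytic kinases CHUK and IKBKB with the scaffold IKBKG, also called NEMO), IκB is degraded, and dimers such as RELA with the NFKB1 product p50 enter the nucleus. In the noncanonical branch, MAP3K14 (NIK) activates CHUK, which drives processing of the NFKB2 precursor to p52, the usual partner of RELB. Several of these genes are themselves known NFκB targets, which gives the pathway feedback at the level of transcription.

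The stretches of promoter that hold a match to the κB consensus are shown because κB sites are how NFκB dimers are known to reach their target genes. The consensus searched was GGGRNNYYCC, with R for A or G, Y for C or T and N for any base. RefSeq promoter windows of GRCh38.p14, running from 250 bases before to 50 bases after an annotated start, were found for 8 of the 10 members, and 4 of those 8 had a match on either strand: REL, NFKB1, NFKB2 and BCL3. The same search found a match in 11.3% of all 35116 windows and in 17.5% of the 8995 tested genes with a window. The windows of RELA, CHUK, IKBKG and MAP3K14 did not contain these letters. Each stretch of 30 bases is written 5′ to 3′ on the strand of the gene, with the match in capitals, and the 4 NFKB2 stretches come from 2 windows, the first 2 from the window of 1 annotated start and the last 2 from that of another.
REL, chr2:60881518-60881547, plus strand, match beginning 47 bases before the start: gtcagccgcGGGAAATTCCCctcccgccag
NFKB1, chr4:102501300-102501329, plus strand, 49 bases before the start: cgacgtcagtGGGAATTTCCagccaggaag
NFKB2, chr10:102394462-102394491, plus strand, 107 bases before the start: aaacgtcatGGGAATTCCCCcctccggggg
NFKB2, chr10:102394490-102394519, plus strand, 78 bases before the start: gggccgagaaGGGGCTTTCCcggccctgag
NFKB2, chr10:102395519-102395548, plus strand, 176 bases before the start: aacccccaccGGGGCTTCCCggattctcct
NFKB2, chr10:102395674-102395703, plus strand, 21 bases before the start: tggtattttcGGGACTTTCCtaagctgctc
BCL3, chr19:44748700-44748729, plus strand, 2 bases after the start: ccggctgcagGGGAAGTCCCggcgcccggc
The capitals of REL and of the first NFKB2 stretch join overlapping matches on both strands, and the NFKB1 match and 2 of the NFKB2 matches end in the same TTTCC. The data hold no measure of binding, so a match describes the letters only.

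The libraries held 7652016 to 39943664 assigned reads, the shallowest being E2 replicate 2. Each E2 library was shallower than every library of the other groups. Comparisons with the E2 group therefore also set shallower against deeper libraries, and the part of depth in them was not tested. The members had 13 (REL, E2 replicate 1) to 11358 reads (RELA, E2+TNFα replicate 3). ESR2, the gene of ERβ, was at 28.6 to 63.5 RPKM (reads per kilobase of exon, scaled for library depth) in all 12 libraries. It was not even across groups: the mean was 59.1 RPKM for vehicle, 56.1 for E2+TNFα, 38.3 for E2 and 31.9 for TNFα. By mean, both comparisons without vehicle therefore also set higher against lower ESR2, and its part in the results below was not tested. The mesenchymal markers VIM, CD44 and AXL of this line were at 97.7 RPKM or more in every library, and the leukocyte gene CD14 was at 1.05 RPKM or less, while CD68 was at 39.5 to 57.4. The epithelial gene CDH1 averaged 0.582 RPKM in vehicle, 0.351 in TNFα, 7.59 in E2 and 7.52 in E2+TNFα, and its part in the results below was not tested. The vehicle libraries stood apart from the other 9: the 20% of genes with the lowest exon GC content (up to 42.0% GC) had a median log2 fold change against vehicle of -1.91 for E2, -1.92 for TNFα and -1.64 for E2+TNFα, and the 20% with the highest had 0.76, 0.81 and 0.70. Without vehicle these medians were 0.24 and -0.05 for E2+TNFα against E2 and 0.28 and -0.08 for E2+TNFα against TNFα. The vehicle condition and whatever set those 3 libraries apart cannot be told apart, and the comparisons without vehicle are therefore described first.

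RELA, which encodes the p65 subunit (chromosome 11, 65653596 to 65662972, hg38), had the highest mean RPKM of the 10 genes in each of the 4 groups. It was at 76.1, 68.9 and 66.6 RPKM in vehicle, 120.4, 162.8 and 122.7 in E2, 122.6, 116.8 and 127.8 in TNFα, and 114.5, 108.2 and 132.0 in E2+TNFα. The 3 groups that received a ligand overlapped, and the vehicle libraries lay below all of them. NFKB2, which encodes p100 and p52 (chromosome 10, 102394110 to 102402529), ranked next in mean RPKM in all 4 groups, with its libraries overlapping those of BCL3 in E2, of RELB in TNFα and of RELB in E2+TNFα. REL (chromosome 2, 60881495 to 60928171), the c-Rel subunit best known from lymphocytes, was the lowest in all 4 groups at 0.112 to 1.93 RPKM. In vehicle NFKB1, IKBKG, BCL3 and CHUK followed each other with overlapping libraries, and CHUK then dropped to the ninth place in the other 3 groups, where it did not overlap its neighbours in rank. In bulk RNA, fewer cells of a kind and less RNA per cell cannot be told apart.

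**Figure D1:**
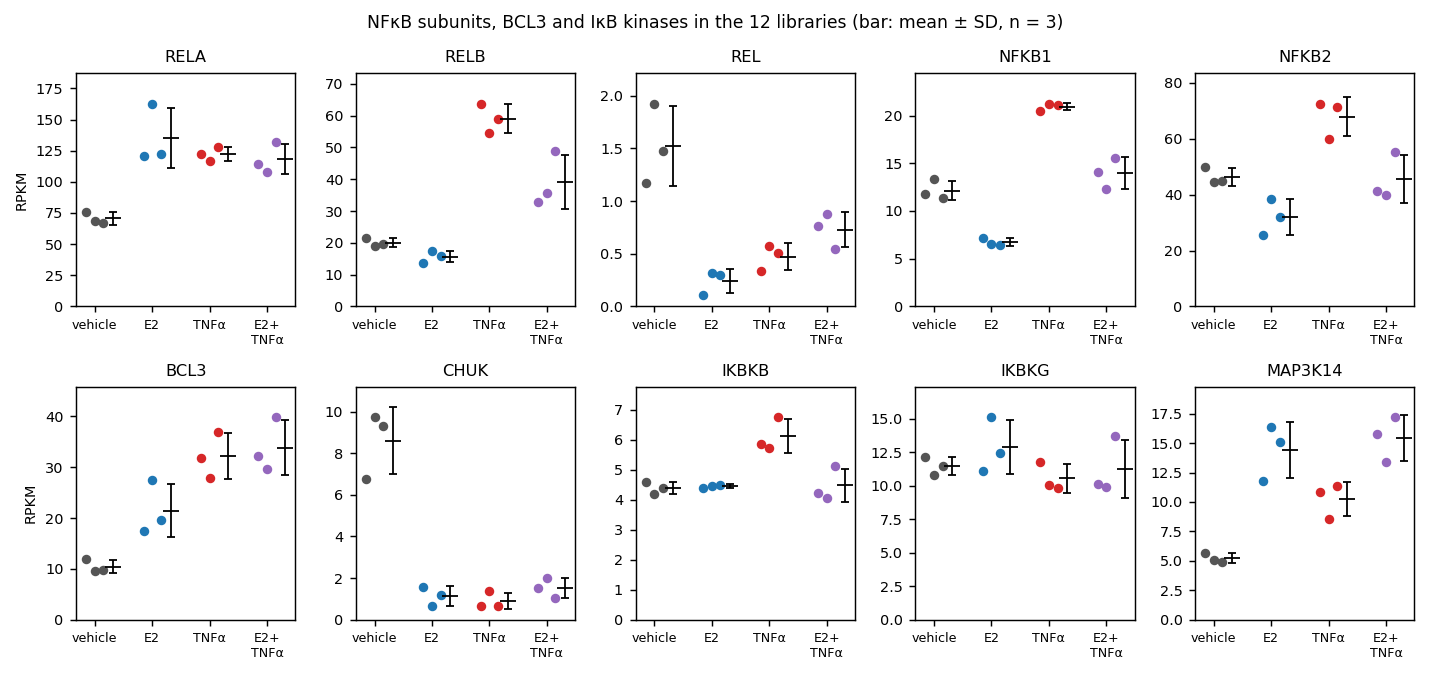
RPKM (y axis, linear from 0, with its own range in each panel) of each of the 10 genes in the vehicle, E2, TNFα and E2+TNFα libraries, with 1 point per library and bars for the mean ± SD (n = 3). RELB, NFKB1 and NFKB2 were lowest in the E2 libraries and highest in the TNFα libraries by mean, CHUK was at 6.76 RPKM or more in vehicle and at most 1.99 elsewhere, and IKBKG stayed between 9.85 and 15.1.

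The comparison of E2+TNFα with E2 gives the response to TNFα in cells already exposed to E2. In it 5 of the 10 members were higher at an adjusted p of at most 0.1 (RELB, REL, NFKB1, NFKB2 and BCL3) and 0 were lower, where 2.65% of all genes tested were higher, 3.34% lower and 6% changed in either direction (edgeR quasi-likelihood test, Benjamini-Hochberg over 11303 genes). 0 members were lower at an unadjusted p under 0.05 or by DESeq2 as well. The background itself rested on single libraries: 300 genes were higher and 378 lower with all libraries, 725 and 933 without E2 replicate 3, 892 and 747 without E2+TNFα replicate 3, 178 and 255 without E2+TNFα replicate 1, 95 and 49 without E2 replicate 1, and 114 and 16 without E2+TNFα replicate 2. Of the 5 Rel-homology subunits 4 rose, and of the 4 kinases and scaffold (CHUK, IKBKB, IKBKG, MAP3K14) 0 passed the test, also 0 at an unadjusted p under 0.05 and 0 by DESeq2. The median log2 fold change was 0.43 over the 10 members and 0.01 over all genes.

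RELB, the noncanonical partner of p52 (chromosome 19, 45001449 to 45038198), was at 13.7, 17.4 and 15.8 RPKM in E2 and at 32.8, 35.8 and 48.9 in E2+TNFα. Every E2+TNFα library lay above every E2 library, and the log2 fold change was 1.33 ± 0.153 (SE; edgeR adjusted p = 1.47e-04). NFKB1, the gene of p105 and p50 (chromosome 4, 102501329 to 102617302), was at 7.22, 6.50 and 6.48 RPKM in E2 and at 14.1, 12.3 and 15.5 in E2+TNFα, again without overlap, a log2 fold change of 1.05 ± 0.123 (SE; edgeR adjusted p = 1.71e-04). Both calls held under each of the other processing settings tried and without any single library.

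NFKB2 was at 25.7, 38.3 and 31.9 RPKM in E2 and at 41.4, 39.9 and 55.4 in E2+TNFα. These groups did not overlap, although E2 replicate 2 reached 38.3 against the lowest E2+TNFα library at 39.9, and the log2 fold change was 0.52 ± 0.157 (SE; edgeR adjusted p = 0.0917). BCL3, an atypical IκB that binds p50 and p52 dimers in the nucleus (chromosome 19, 44748045 to 44760044), was at 17.4, 27.4 and 19.7 RPKM in E2 and at 32.1, 29.6 and 39.9 in E2+TNFα, a log2 fold change of 0.67 ± 0.177 (SE; edgeR adjusted p = 0.0600). REL was at 0.112, 0.320 and 0.295 RPKM in E2 and at 0.760, 0.878 and 0.549 in E2+TNFα. REL was thus below the RPKM of 1 asked for testing in both groups and entered the tests only through the vehicle libraries. Its log2 fold change of 1.67 ± 0.371 (SE; edgeR adjusted p = 0.0316) was the only one of the 10 past the study's thresholds (a log2 fold change of 1.5 or more in size, p below 0.05 and adjusted p up to 0.1), which 0.407% of all genes passed, and it rested on 13, 16 and 26 reads in the E2 libraries. The calls of REL, NFKB2 and BCL3 did not hold without E2 replicate 1 (log2 fold changes of 1.26, 0.38 and 0.54) or without E2+TNFα replicate 2 (1.51, 0.60 and 0.76), which left 2 members called. NFKB2 also lost its call without E2 replicate 3 (0.51), without E2+TNFα replicate 1 (0.58) and without E2+TNFα replicate 3 (0.35). REL also lost its call with 1 unwanted factor estimated from 20 housekeeping genes (1.34, edgeR adjusted p = 0.102).

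RELA did not pass in this comparison, at a log2 fold change of -0.19 ± 0.129 (SE; edgeR adjusted p = 0.442), with overlapping libraries. The differences of the kinases were 0.35 for CHUK, 0.01 for IKBKB, -0.19 for IKBKG and 0.10 for MAP3K14, with edgeR adjusted p-values of 0.534 to 0.976. Groups without overlap were seen for the 5 members that were called and for 15.3% of all genes.

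The comparison of E2+TNFα with TNFα gives the effect of E2 in cells stimulated with TNFα, the setting in which ERβ was examined as a brake on NFκB. Here 4 members were lower (RELB, NFKB1, NFKB2 and IKBKB) and 2 were higher (MAP3K14 and CHUK), where 21% of all genes were lower, 24.4% higher and 45.3% changed in either direction at an adjusted p of at most 0.1. These 6 of 10 members stand beside that 45.3% of all genes, and the members' median log2 fold change of 0.01 was near that of all genes at 0.04. 0 members passed the study's thresholds, which 5.56% of genes did, also 0 at an unadjusted p under 0.05 with that size and 0 by DESeq2.

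RELB was at 63.8, 54.5 and 58.9 RPKM in TNFα and at 32.8, 35.8 and 48.9 in E2+TNFα. All 3 E2+TNFα libraries were below all 3 TNFα libraries, by a log2 fold change of -0.59 ± 0.147 (SE; edgeR adjusted p = 0.00547). NFKB1 went from 20.5, 21.2 and 21.1 RPKM in TNFα to 14.1, 12.3 and 15.5 in E2+TNFα, a log2 fold change of -0.58 ± 0.118 (SE; edgeR adjusted p = 0.00127). NFKB2 went from 72.6, 59.9 and 71.5 to 41.4, 39.9 and 55.4 RPKM, a log2 fold change of -0.58 ± 0.156 (SE; edgeR adjusted p = 0.00925). The 3 genes thus fell by similar amounts, and for each the E2+TNFα libraries lay between the E2 and the TNFα libraries without overlapping either. The values of both comparisons share the E2+TNFα libraries. Between E2+TNFα and TNFα, 5 of the 10 members and 46.8% of all genes had no overlap.

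IKBKB, the catalytic kinase of the canonical branch (chromosome 8, 42271302 to 42332653), was at 5.87, 5.73 and 6.76 RPKM in TNFα and at 4.24, 4.07 and 5.12 in E2+TNFα. The groups did not overlap, and the log2 fold change was -0.45 ± 0.127 (SE; edgeR adjusted p = 0.0120). MAP3K14, the NIK kinase of the noncanonical branch (chromosome 17, 45263119 to 45317064), moved the other way, from 10.9, 8.58 and 11.3 RPKM in TNFα to 15.8, 13.4 and 17.2 in E2+TNFα, a log2 fold change of 0.59 ± 0.152 (SE; edgeR adjusted p = 0.00675). An antisense gene, MAP3K14-AS1, overlaps its exons, and the strand setting of the read counting is not given in the sources used here, so reads of the pair cannot be told apart. CHUK, the kinase shared by both branches (chromosome 10, 100186113 to 100229610), was at 0.663, 1.36 and 0.671 RPKM in TNFα and at 1.53, 1.99 and 1.02 in E2+TNFα. These libraries overlapped, and the log2 fold change of 0.74 ± 0.330 (SE; edgeR adjusted p = 0.0933) was not called in 8 of the other settings, among them without TNFα replicate 1 (0.55), TNFα replicate 3 (0.58), E2+TNFα replicate 1 (0.73) or E2+TNFα replicate 2 (0.47), each of which left 1 member higher. The calls of RELB, NFKB1, NFKB2, IKBKB and MAP3K14 held in every setting tried.

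RELA was at a log2 fold change of -0.05 ± 0.129 (SE; edgeR adjusted p = 0.796), so that the transcript of p65 did not pass in either comparison without vehicle. BCL3 was at 0.07, with 31.8, 27.9 and 36.9 RPKM in TNFα against 32.1, 29.6 and 39.9 in E2+TNFα, and REL was at 0.62 (edgeR adjusted p = 0.138). IKBKG (chromosome X, 154541204 to 154568573) was at 0.09. Its counts are uncertain: 3141 of its 4394 exon bases match a second place on the X chromosome (154635857 to 154648275) at 99.9% identity. At lower identity, 1139 of the 2578 exon bases of RELA aligned to chromosome 7 (87.1%). For NFKB2, 1578 of 3915 exon bases aligned to chromosome 18 (88.4%). The part of these copies in the counts was not tested.

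**Figure D2:**
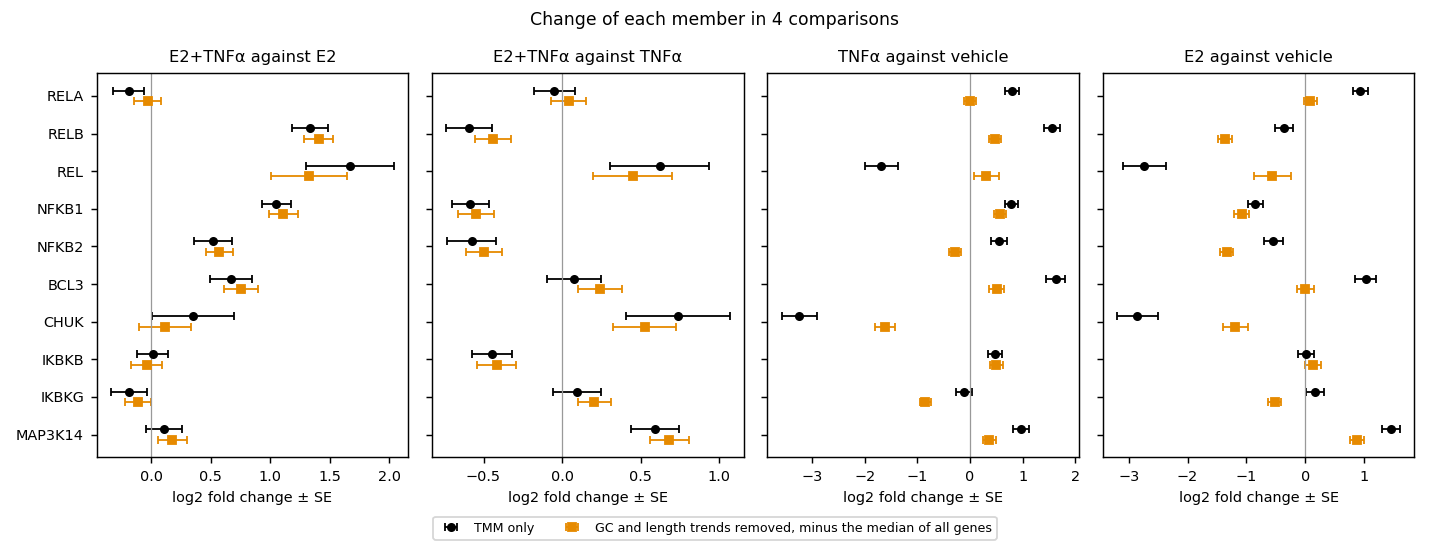
Log2 fold change ± SE (x axis, a separate range in each panel) of the 10 genes in 4 comparisons, with TMM scaling only (black) and with trends over exon GC content and length removed, minus the median of all genes (orange). In E2+TNFα against TNFα the black points of RELB, NFKB1 and NFKB2 sit at -0.59 to -0.58 and that of MAP3K14 at 0.59, and in the panels against vehicle REL and CHUK move most between the black and the orange points.

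TNFα against vehicle gives the response without E2. With TMM scaling 7 members were higher (RELA, RELB, NFKB1, NFKB2, BCL3, IKBKB and MAP3K14) and 2 lower (REL and CHUK), where 40.3% of all genes were higher, 41.6% lower and 81.9% changed in either direction. BCL3 rose from 11.9, 9.54 and 9.87 RPKM to 31.8, 27.9 and 36.9, a log2 fold change of 1.62 ± 0.178 (SE; edgeR adjusted p = 1.04e-06). RELB rose from 21.6, 19.0 and 19.6 RPKM to the 54.5 to 63.8 given above, by 1.56 ± 0.150 (SE; edgeR adjusted p = 3.07e-07). Genes of like GC had a median of 1.03 for both, and with 1 unwanted factor estimated from 20 housekeeping genes BCL3 was at 0.50 (edgeR adjusted p = 0.344) and RELB at 0.85 (edgeR adjusted p = 0.109). All 7 higher calls were lost with that factor, and so were the lower calls of REL and CHUK (edgeR adjusted p = 0.613 and 0.407). Only IKBKG, which was not called with TMM scaling alone and has the uncertain counts described above, was then called lower (edgeR adjusted p = 0.0528). BCL3, RELB, REL and CHUK were the 4 members past the study's thresholds, which 26.7% of genes passed, and 9 members had no overlap between the groups, as did 86.6% of genes.

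The exon GC content of the members runs from 40.1% (REL) and 40.6% (CHUK) to 65.2% (RELB) and 65.9% (BCL3), so the vehicle comparisons are given beside genes of like GC. CHUK was at 6.76, 9.74 and 9.32 RPKM in vehicle and at most 1.99 in the other 9 libraries, a log2 fold change of -3.24 ± 0.337 (SE) in TNFα, where the 564 genes of like GC had a median of -1.70. REL was at 1.17, 1.93 and 1.48 RPKM in vehicle and at most 0.878 elsewhere. It thus met the filter for testing, an RPKM of 1 in 3 or more libraries, only through the vehicle group where it was high. Its log2 fold change in TNFα was -1.69 against a like-GC median of -1.71. REL therefore lay at the median of genes of like GC, and CHUK lay below it. RELA at 0.79, NFKB2 at 0.55 and IKBKG at -0.12 had like-GC medians of 0.70, 0.81 and 0.73.

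Removal of the GC and length trends also moved the median of all genes, to 0.22 for TNFα, 0.36 for E2 and 0.21 for E2+TNFα against vehicle, to -0.16 in E2+TNFα against E2 and to -0.01 against TNFα, so values with the trends removed are given minus that median. In TNFα against vehicle they were 0.47 for RELB, 0.56 for NFKB1, 0.50 for BCL3, 0.50 for IKBKB, 0.36 for MAP3K14, 0.00 for RELA, -0.28 for NFKB2, 0.31 for REL, -0.85 for IKBKG and -1.61 for CHUK. The direction of RELB, NFKB1, BCL3, IKBKB, MAP3K14, IKBKG and CHUK was thus kept, while that of REL and NFKB2 was not and RELA was at the median. IKBKG, with the uncertain counts described above, was called lower in that fit before the median was taken off (-0.63, edgeR adjusted p = 3.62e-05), and 0 members passed the study's thresholds in that fit. In E2+TNFα against E2 the same step left RELB at 1.40, REL at 1.33, NFKB1 at 1.11, NFKB2 at 0.57 and BCL3 at 0.76.

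**Figure D3:**
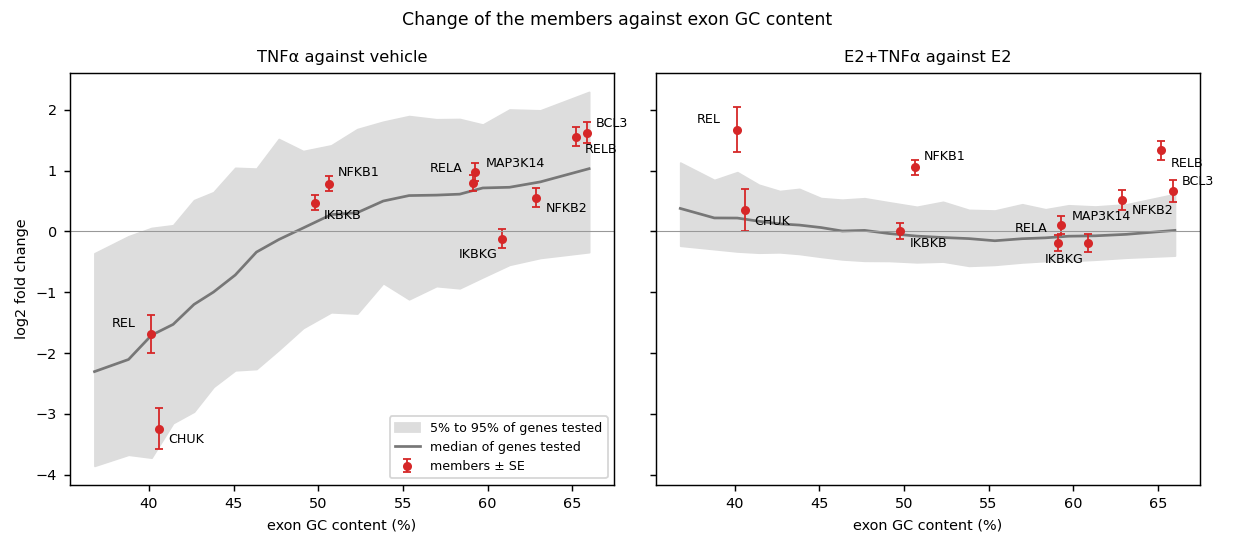
Log2 fold change (y axis) against exon GC content in percent (x axis) for TNFα against vehicle (left) and E2+TNFα against E2 (right), with the median (line) and the 5% to 95% range (grey) of all genes tested in 20 bins of GC content and the 10 members as red points ± SE. On the left REL sits on the median line at -1.69 and CHUK below it at -3.24, and on the right RELB, NFKB1 and REL stand above a line that stays near 0.

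E2 against vehicle gives the effect of ERβ ligand without TNFα. With TMM scaling 3 members were higher (RELA, BCL3 and MAP3K14) and 5 lower (RELB, REL, NFKB1, NFKB2 and CHUK), where 40.1% of genes were higher, 41.7% lower and 81.8% changed in either direction. NFKB1 was at 11.7, 13.3 and 11.3 RPKM in vehicle and at 6.48 to 7.22 in E2, a log2 fold change of -0.85 ± 0.122 (SE; edgeR adjusted p = 1.37e-05). NFKB2 was at 49.9, 44.4 and 44.8 in vehicle and at 25.7 to 38.3 in E2, a log2 fold change of -0.54 ± 0.157 (SE; edgeR adjusted p = 0.00547). RELB, NFKB1 and NFKB2 were lower than vehicle in every setting tried, and their like-GC medians were above 0, at 0.88, 0.33 and 0.79. With the trends removed the 3 genes stood at -1.36, -1.08 and -1.34 relative to the median of all genes.

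MAP3K14 was at 5.70, 5.03 and 4.92 RPKM in vehicle and at 11.8, 16.4 and 15.1 in E2, a log2 fold change of 1.46 ± 0.156 (SE; edgeR adjusted p = 6.41e-07) beside a like-GC median of 0.64. It stood at 0.88 with the trends removed and at 0.19 with the unwanted factor, where it was not called (edgeR adjusted p = 0.827). RELA and BCL3, at 0.94 and 1.03 with TMM alone, were at 0.09 and 0.00 with the trends removed and relative to the median of all genes, and below 0 at -0.22 and -0.66 with the unwanted factor. REL and CHUK, at -2.74 and -2.86, were the 2 members past the study's thresholds, as were 30.5% of genes, with like-GC medians of -1.71 for both. With the trends removed and relative to the median of all genes they stood at -0.56 and -1.19. REL was not called in that fit (-0.19 before the median was taken off, edgeR adjusted p = 0.599). REL entered the tests only through vehicle, so its calls against vehicle and in the interaction are not independent of the filter. IKBKB was at 4.59, 4.21 and 4.41 RPKM in vehicle and 4.39, 4.46 and 4.51 in E2, with overlapping libraries and a log2 fold change of 0.02 ± 0.129 (SE; edgeR adjusted p = 0.916). With the trends removed IKBKB was called higher (0.50, edgeR adjusted p = 0.00217), and with library size only it was called lower (-0.34, edgeR adjusted p = 0.0146). Relative to the median of all genes these values were 0.13 and 0.04. In all, 8 members had no overlap between E2 and vehicle, as did 80.9% of genes.

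E2+TNFα against vehicle had 4 members higher (RELA, RELB, BCL3 and MAP3K14) and 2 lower (REL and CHUK), where 39.1% of genes were higher, 41.5% lower and 80.6% changed in either direction. MAP3K14, at 15.8, 13.4 and 17.2 RPKM against 4.92 to 5.70, differed by 1.57 ± 0.155 (SE; edgeR adjusted p = 4.17e-07), and it stood at 1.05 with the trends removed and relative to the median of all genes. BCL3 was at 1.70 with TMM scaling and at 0.75 after that step, and CHUK at -2.51 and -1.08. RELB went from 0.97 to 0.04 and RELA from 0.75 to 0.05, beside like-GC medians of 0.90 and 0.59 with TMM scaling. REL changed sign with it, from -1.07 to 0.76. NFKB1 and NFKB2, at 0.20 and -0.02, did not pass and overlapped vehicle. NFKB2 was called lower with the trends removed (-0.56, edgeR adjusted p = 2.23e-04, and -0.77 relative to the median of all genes) and with the unwanted factor (-1.12, edgeR adjusted p = 0.0439), while NFKB1 was called higher by DESeq2 (0.20, adjusted p = 0.0990) and with the trends removed (0.23, edgeR adjusted p = 0.0869, and 0.02 relative to the median of all genes). IKBKG, at -0.02, was likewise called lower with the trends removed (-0.43, edgeR adjusted p = 0.00140) and with the unwanted factor (-1.02, edgeR adjusted p = 0.0699). IKBKB, at 0.03, did not pass either. It was called higher with the trends removed (0.29, edgeR adjusted p = 0.0444, and 0.09 relative to the median of all genes). With library size only IKBKB was called lower (-0.22, edgeR adjusted p = 0.0963, and 0.05 relative to that median). Past the study's thresholds were 3 members (BCL3, MAP3K14 and CHUK) and 25.1% of genes, and 6 members and 81.6% of genes had no overlap between the groups. With the unwanted factor 0 members were higher in this comparison.

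Ratios of 2 members within a library do not depend on how libraries are scaled, although they still depend on a GC trend where the genes differ in GC content. RELB was at 0.283, 0.275 and 0.293 of RELA in vehicle, 0.114, 0.107 and 0.129 in E2, 0.521, 0.467 and 0.461 in TNFα and 0.287, 0.331 and 0.371 in E2+TNFα. The E2 libraries were lowest and the TNFα libraries highest, and the E2+TNFα libraries lay between them and overlapped vehicle. The log2 ratio differed by 1.495 between E2+TNFα and E2, by -0.56 between E2+TNFα and TNFα, by -1.29 between E2 and vehicle and by 0.76 between TNFα and vehicle. Each of these 4 tests gave p = 0.1 by a two-sided exact permutation test, the smallest that 3 against 3 allows, and 0.178 after adjustment over the 16 ratio tests.

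IKBKB was at 0.680, 0.432 and 0.473 of CHUK in vehicle and at 2.04 to 10.1 times CHUK in the other 9 libraries. CHUK has 40.6% and IKBKB 49.8% GC. After both trends were removed the log2 ratio was 0.021 to 0.47 in vehicle and 1.21 to 2.83 in the other 9 libraries, still without overlap. Between E2+TNFα and TNFα the log2 ratio differed by -1.24 (two-sided exact permutation p = 0.2), with overlapping libraries. REL to RELA was higher in E2+TNFα than in E2 by 1.89 (two-sided exact permutation p = 0.1) and did not separate E2+TNFα from TNFα (0.69, exact p = 0.2). The ratio of the 2 precursor genes, NFKB2 to NFKB1, was 2.93, 3.25 and 3.57 in E2+TNFα, 3.54, 2.82 and 3.40 in TNFα and 3.56, 5.89 and 4.93 in E2. It differed by 0.00 between E2+TNFα and TNFα (exact permutation p = 1) and by -0.53 between E2+TNFα and E2 (exact permutation p = 0.2).

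**Figure D4:**
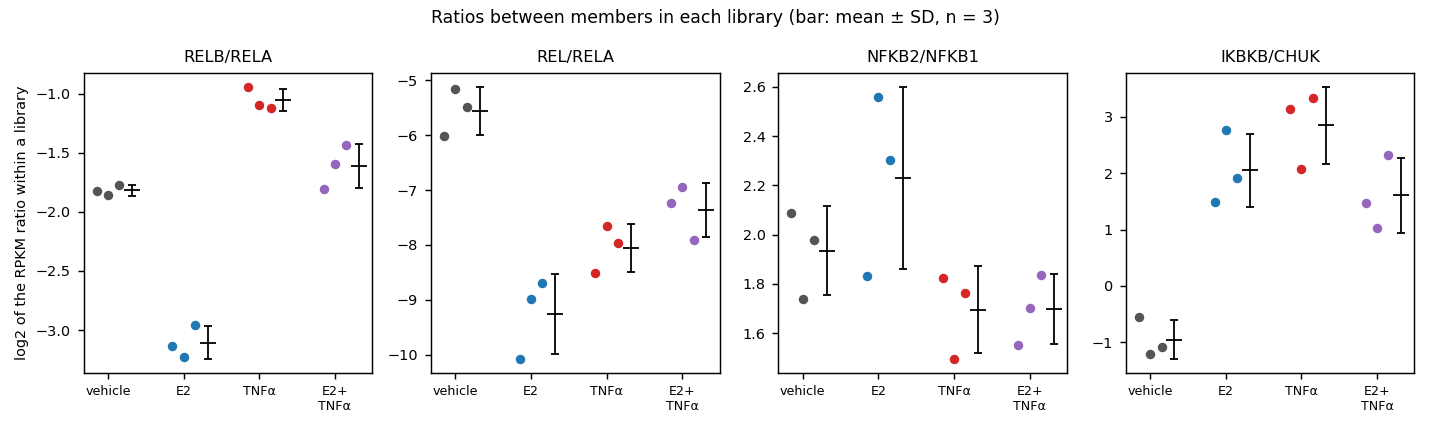
Log2 ratio of the RPKM of 2 members within each library (y axis, a separate range in each panel) for RELB/RELA, REL/RELA, NFKB2/NFKB1 and IKBKB/CHUK in the 4 groups, with 1 point per library and bars for the mean ± SD (n = 3). RELB/RELA separates E2, TNFα and E2+TNFα from each other, while NFKB2/NFKB1 overlaps between TNFα and E2+TNFα.

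Whether the response to TNFα differed with E2 was tested as an interaction, the log2 fold change of TNFα in E2 cells minus that in vehicle cells. Of the 10 members 2 had a higher and 4 a lower response with E2, where 39% of genes were higher, 37.6% lower and 76.6% changed in either direction, and 2 members (REL and CHUK) were past the study's thresholds, as were 31.8% of genes. The interaction includes the vehicle libraries and their GC trend. RELB at -0.23 ± 0.211, NFKB1 at 0.26 ± 0.169 and NFKB2 at -0.04 ± 0.221 (SE) did not pass in the main fit (TMM scaling, all 12 libraries, edgeR adjusted p = 0.343, 0.172 and 0.890). That result depended on the setting. NFKB1 was called higher with 10 counts or more in every library (0.33, edgeR adjusted p = 0.0880) and with library size only (0.58, edgeR adjusted p = 0.00396). It was also called higher without E2 replicate 1 (0.35) or without E2+TNFα replicate 2 (0.35). RELB was called lower without E2+TNFα replicate 3 (-0.42), and NFKB2 higher with the unwanted factor (1.30, edgeR adjusted p = 0.0914). RELB (0.54) and NFKB2 (0.46) were called higher with the trends removed, before the -0.37 median of all genes is taken off. For all 3 the E2 libraries lay below vehicle and the E2+TNFα libraries below TNFα.

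The rest of the pathway was read from a list of 40 genes (IκB proteins, the TNF receptor complex, the noncanonical arm, deubiquitination, IKK-related kinases and chaperones, and the IκB ubiquitin ligase), of which 39 were tested. In E2+TNFα against E2, 9 of the 39 were higher and 0 lower (0 at an unadjusted p under 0.05, and by DESeq2 11 higher and 0 lower), with 30 not passing, where 2.65% of all genes were higher and 3.34% lower. TNFAIP3, the A20 enzyme that switches the pathway off, was at 12.6 ± 0.301 RPKM in E2 and 74.8 ± 2.85 in E2+TNFα (SD, n = 3), a log2 fold change of 2.57. BIRC3 (cIAP2), a ubiquitin ligase of the TNF receptor complex, differed by 2.15 and NFKBIA (IκBα) by 0.88. In the group of IκB proteins 3 of 5 were higher, and in the IKK-related kinases and chaperones 0 of 6 (1 at an unadjusted p under 0.05 and 1 by DESeq2).

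In E2+TNFα against TNFα, 9 of the 39 were higher, 10 lower and 20 did not pass, beside the 45.3% of all genes given above. TNFRSF1B, the second TNF receptor, was at 8.84 ± 0.955 RPKM in TNFα and 2.84 ± 0.536 in E2+TNFα (SD, n = 3), a log2 fold change of -1.63, and NFKBIZ (IκBζ), a nuclear IκB, differed by -1.27. BIRC3 was higher, at 1.58 ± 0.137 RPKM in TNFα and 17.1 ± 10.1 in E2+TNFα (SD, n = 3), a log2 fold change of 3.44 with a wide spread between the E2+TNFα libraries. Of the 5 IκB proteins 3 were lower and 1 higher. Against vehicle the list had 22 higher and 17 lower in TNFα, 17 higher and 19 lower in E2, and 20 higher and 17 lower in E2+TNFα, where 81.9%, 81.8% and 80.6% of all genes changed in either direction.

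The genes whose pattern over the 12 libraries was nearest to each member were found by the root mean square (RMS) difference of log2 CPM (counts scaled for library depth), each gene centred on its own mean. RELA was nearest to TNFRSF1A, the main TNF receptor, at an RMS difference of 0.0506 beside RELA's own RMS spread of 0.383, and then to MGAT1 at 0.0643. RELB was nearest to PLK3 (0.257) and EBI3 (0.293), at a larger RMS difference beside a spread of 0.775. NFKB1 was nearest to BCOR (0.226) and GADD45A (0.231), NFKB2 to ATXN2L (0.1246) and PTPRF (0.140), BCL3 to JUNB (0.173) and ZNF296 (0.181), and REL to KIAA0586 (0.371) and CDK6 (0.388). For the kinases the nearest were COPB1 (0.185) and BZW1 (0.194) for CHUK, NAXD (0.0695) and KHSRP (0.0712) for IKBKB, RNF123 (0.0548) and PEX6 (0.0776) for IKBKG, and MIDN (0.112) and KLHL21 (0.114) for MAP3K14. The 12 libraries share the offset of the vehicle group, so these likenesses include it.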

How the data were processed

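The authors aligned reads of a stranded mRNA kit with TopHat2 2.1.0 to hg38 and counted them with featureCounts, per the labels, and deposited a table of raw counts per gene. Of its 12567 rows, 46 exact repeats and 70 entries at the locus of another entry were removed, leaving 12451. Groups came from the sample labels. The 11303 genes that reached an RPKM of 1 in 3 or more libraries entered edgeR 4.0.16 (R 4.3.3, quasi-likelihood F test, TMM scaling), with 4 group means in a single fit of all 12 libraries and Benjamini-Hochberg adjustment over all genes. The SE is the log2 fold change over the square root of F, and RPKM used the table's summed exon lengths. Same-numbered replicates did not pair: the correlation of their deviations from group means was -0.482 to 0.467, above 0.1 in 5 of 18 pairs. The study corrected batches with RUVseq, but its batches and housekeeping genes are not given in the sources used here, so a correction with 20 common housekeeping genes was an alternative. Other alternatives were DESeq2 1.42.0, other scalings and filters, a replicate block, GC and length trends removed by loess (span 0.3), only the groups compared, and each library left out. Exon copies were searched with minimap2 2.31. Every member is named, and beside them the 3 largest changes among the pathway genes with an adjusted p of at most 0.1 in both comparisons without vehicle and the 2 nearest genes per member. The members and lists were chosen with earlier results of these data known. The scripts were tested on simulated data.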

Additional observations from a re-analysis of the deposited data

Results flagged for a closer look

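In the main fit 6 of the 10 members passed a test of whether the response to TNFα differed with and without E2, where 76.6% of all genes tested did. This test was the interaction of E2 and TNFα in edgeR, at an adjusted p of at most 0.1. With the unwanted factor none of these 6 was called (edgeR adjusted p = 0.307 for REL to 0.922 for RELA). The interaction, as the log2 fold change of TNFα in E2 cells minus that in vehicle cells, was 3.59 for CHUK and 3.36 for REL, and -0.99 for RELA, -0.95 for BCL3, -0.87 for MAP3K14 and -0.46 for IKBKB. Each of these values contains the 3 vehicle libraries, and genes of like GC content had median interactions of 1.97 (CHUK and REL), -0.77 (RELA and MAP3K14), -1.04 (BCL3) and -0.04 (IKBKB). With the GC and length trends removed, and relative to the median of all genes at -0.37, the interaction was 1.71 for CHUK, 1.00 for REL, -0.05 for RELA, 0.24 for BCL3, -0.20 for MAP3K14 and -0.55 for IKBKB, so that BCL3 changed sign. In that fit REL and BCL3 were not called (edgeR adjusted p = 0.183 and 0.575). REL had also entered the tests only through the vehicle libraries. RELB (-0.23), NFKB1 (0.26), NFKB2 (-0.04) and IKBKG (-0.07) did not pass in the main fit. The first 3 stood at 0.92, 0.53 and 0.84 with the trends removed and relative to the median of all genes.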

How the results depend on the processing

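Outside the settings that leave out a library, 478 of 590 member values kept their direction and their side of the threshold, 34 lost and 24 gained the call and 54 changed sign. In E2+TNFα against TNFα, RELB, NFKB1, NFKB2, IKBKB and MAP3K14 kept their calls in all settings, and in E2+TNFα against E2, RELB and NFKB1 did. The cause of the changes below was not tested. Counts of 13 to 26 REL reads and 16 to 89 CHUK reads in E2 limit those values, and with 3 libraries a group the exact permutation tests of ratios cannot go below p = 0.1. The library-size scaling moved the median of all genes to -0.38 for E2, -0.19 for TNFα and -0.26 for E2+TNFα against vehicle, and to 0.13 in E2+TNFα against E2. The number of all genes past the study's thresholds in E2+TNFα against E2 was 46, and 100 with the unwanted factor, 30 with only the groups compared and 24 among genes with 10 counts or more in all libraries.

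With 1 unwanted factor from housekeeping genes, 0 members were higher, 3 lower and 1 past the study's thresholds in E2 against vehicle, 0 higher, 1 lower and 0 past them in TNFα against vehicle, 0 higher and 0 past them in E2+TNFα against vehicle, and 1 higher, 0 lower and 0 past them in the interaction. Signs changed in E2 against vehicle for RELA (-0.22), BCL3 (-0.66), CHUK (0.57), IKBKB (-0.61) and IKBKG (-1.16), in TNFα against vehicle for NFKB2 (-0.42), and in E2+TNFα against vehicle for RELA (-0.12), NFKB1 (-0.15), CHUK (0.070) and IKBKB (-0.45). They changed in E2+TNFα against TNFα for BCL3 (-0.066) and IKBKG (-0.021), in E2+TNFα against E2 for RELA (0.10), CHUK (-0.50) and IKBKG (0.14), and in the interaction for RELA (0.077), RELB (0.74), NFKB2 (1.30), BCL3 (0.60), IKBKB (0.10), IKBKG (1.14) and MAP3K14 (0.29).

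With the GC and length trends removed, not relative to the median of all genes, 0 members passed the study's thresholds in any of the comparisons with vehicle, in E2+TNFα against E2 or in the interaction, 7 were higher in E2+TNFα against vehicle and 4 in the interaction. Signs changed for IKBKG in E2 (-0.15), REL (0.54) and NFKB2 (-0.055) in TNFα and REL (0.97) in E2+TNFα against vehicle, for RELA (0.031) against TNFα, for CHUK (-0.047) and IKBKB (-0.20) against E2, and for RELB (0.54), NFKB2 (0.46) and IKBKG (0.35) in the interaction, as well as for the ratios NFKB2/NFKB1 in E2 (-0.26) and REL/RELA in TNFα (0.30) against vehicle. With the replicate block added to that fit, 0 members again passed those thresholds there, 4 were higher in the interaction, and the same values were -0.15, 0.53, -0.056, 0.98, 0.033, -0.078, -0.21, 0.54, 0.47 and 0.34 in the order given for the members.

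With the replicate block alone, 3 members were higher in E2+TNFα against E2 in place of 5, NFKB2 (0.51) and BCL3 (0.66) losing the call. The numbers name dishes only: 5 of 18 same-numbered and 17 of 36 other pairs of libraries correlated above 0.1.

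With library size only, 2 members passed the study's thresholds in TNFα and 1 in E2+TNFα against vehicle, 5 were lower in E2+TNFα against vehicle and 1 was higher in E2+TNFα against TNFα. Signs changed for IKBKB (-0.34) and IKBKG (-0.20) in E2 and NFKB1 (-0.037) and IKBKB (-0.22) in E2+TNFα against vehicle, and for RELB (0.092), NFKB2 (0.29) and IKBKG (0.25) in the interaction. With 10 counts or more asked of every library, IKBKB in E2 (-0.049) and in E2+TNFα (-0.027) against vehicle and NFKB2 in the interaction (0.033) changed sign. IKBKB in E2+TNFα against E2 was at -0.00157 with the DESeq2 test and -0.00381 with DESeq2 size factors, which left 1 member higher in E2+TNFα against TNFα. With only the groups compared, 1 member was higher in E2+TNFα against TNFα, and 2 were higher and 0 past the study's thresholds in E2+TNFα against E2.

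Without single libraries, 376 of 420 member values kept direction and call. Members higher ranged from 2 to 5 and past the study's thresholds from 0 to 1 in E2+TNFα against E2, and higher from 1 to 3 in E2+TNFα against TNFα. Values that crossed 0 ranged from -0.046 to 0.058 (IKBKB in E2 against vehicle), in E2+TNFα against vehicle from -0.19 to 0.064 (NFKB2), -0.084 to 0.091 (IKBKB) and -0.19 to 0.061 (IKBKG), in E2+TNFα against TNFα from -0.14 to 0.011 (RELA), -0.062 to 0.18 (BCL3) and -0.077 to 0.18 (IKBKG), in E2+TNFα against E2 from -0.10 to 0.076 (IKBKB) and -0.022 to 0.20 (MAP3K14), and in the interaction from -0.20 to 0.051 (NFKB2) and -0.24 to 0.017 (IKBKG). The NFKB2/NFKB1 ratio in E2+TNFα against TNFα ranged from -0.098 to 0.075.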
